A study of Mus musculus with 14 samples.

Results

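The 34 genes described here encode the proteins that fold, inspect and clear newly made proteins in the endoplasmic reticulum (ER). They comprise 10 chaperones and co-chaperones, 6 lectin chaperones and disulfide isomerases, 4 sensors of unfolded protein with their transcription factors, 10 genes of ER-associated degradation (ERAD), 2 genes of ufmylation and 2 subunits of the translocon. They were chosen by name from knowledge of the pathway, with earlier results of these data known. They were found in the count table by Ensembl identifier. All 34 were among the 55471 genes of the table and among the 15949 that had enough reads to be tested. The fewest reads for any of the 34 in any library were 46, for Sdf2l1.

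RNA was sequenced from brown adipose tissue (BAT) of male mice aged 10 weeks. WT animals were compared with AdC3KO animals, in which CLSTN3B, a product of the Clstn3 locus, was knocked out in adipocytes only. Every group had first spent 2 weeks at thermoneutrality (30 °C). The groups were WT at 30 °C and AdC3KO at 30 °C, with 3 libraries each, and WT and AdC3KO moved to 4 °C for 6 h, with 4 libraries each. The labels name neither the Cre line that removed the gene nor the alleles of the WT animals. Whether each library came from 1 animal is not stated, so p-values reflect the spread among libraries, which may be technical. Other cells of the tissue keep the gene, and 6 h is the only cold time.

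Proteins destined for membranes or secretion enter the ER through the Sec61 channel and are folded there by the Hsp70 chaperone BiP (Hspa5), its J-domain co-chaperones, lectins that hold glycoproteins and enzymes that form disulfide bonds. Chains that fail to fold are pulled back into the cytosol, marked with ubiquitin by the Hrd1 complex (Syvn1 and Sel1l) and degraded. When unfolded chains accumulate, the sensors IRE1 (Ern1), ATF6 and PERK raise the transcription of chaperones and ERAD genes and lower protein synthesis. Brown adipocytes depend on this system in cold, and Sel1l and Ern1 have both been studied in thermogenesis.

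Libraries held 19932180 to 29026445 reads counted in genes, and values are given as CPM, counts per 1000000 reads of the library after scaling by trimmed means (TMM). Clstn3 lay at 182 to 228 CPM in WT and at 14.8 to 17.3 CPM in AdC3KO at 30 °C, and at 970.0 to 1195 CPM in WT and 53.8 to 77.9 CPM in AdC3KO at 4 °C, so no library went against its genotype label. Ucp1, the uncoupling protein that defines brown fat, ranged from 1409.7 to 1842 CPM in WT at 30 °C to 11021 to 13879 CPM in WT at 4 °C, and all 14 brown adipocyte markers were present. Skeletal muscle transcripts (12 markers, none at 0 in all libraries) stood apart in 5 libraries: WT library 3 and AdC3KO libraries 1 and 2 at 30 °C, and WT library 2 and AdC3KO library 3 at 4 °C. The mean log2 level of these markers was 1.63 to 4.97 in those 5 and −3.40 to −2.39 in the other 9. At 4 °C, WT library 4 and AdC3KO library 1 had high interferon response genes. In whole tissue, fewer cells of a type and less RNA per cell cannot be told apart.

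In cold, the 34 genes split rather than moving as a block. In WT, 16 were higher and 7 lower at 4 °C, and 11 did not pass the test (edgeR's quasi-likelihood test, adjusted p below 0.05). Cold moved most of the transcriptome: 30.6% of all tested genes were called higher and 30.8% lower. Against this, 47.1% of the 34 were higher and 20.6% lower. Their median log2 change was 0.28, where the median of all tested genes was −0.03. In AdC3KO, 18 were higher and 8 lower, or 52.9% and 23.5%, beside 31% and 32.1% of all tested genes, with a median of 0.29 against −0.06. In WT the cold and warm libraries did not overlap for 16 genes that were higher and 8 that were lower, beside 29.9% and 30.4% of all tested genes, and in AdC3KO for 16 and 9, beside 30.9% and 33.2%. Summed over the 34 genes, the level was 2264, 2353 and 2428 CPM in WT at 30 °C and 3742, 3758, 3519 and 3540 CPM at 4 °C. The lowest cold library lay above the highest warm one, also when Hspa5 was left out of the sum (2006 to 2149 CPM against 2913 to 3102 CPM). Such a sum follows the most abundant members and does not show how many of the 34 rose.

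How many of the genes were called higher depended on how the libraries were scaled. The TMM factors were 1.11 to 1.21 in the warm libraries and 0.82 to 0.95 in the cold ones, so scaling by total counts alone lowers every cold value. The split was 16 higher and 7 lower with TMM, 11 and 14 with upper-quartile factors and 8 and 15 with total counts alone, which moved the median of all genes in WT to −0.27 and −0.38. In AdC3KO it was 18 and 8, 9 and 14, and 8 and 15. The 5 scaling settings were TMM, relative log expression (RLE), upper-quartile and total-count factors in edgeR, and DESeq2 with its own factors. TMM, RLE and DESeq2 gave nearly the same values (Hspa5 in WT 1.22 with each), so they are not independent checks. Called in 1 direction in both genotypes in all 5 settings were 7 genes that rose (Dnajb9, Atf6, Canx, Hspa5, Manf, Hsp90b1 and Calr) and 7 that fell (Pdia4, Edem2, Xbp1, Edem1, Ufl1, Dnajc10 and Pdia6). Directions given below for other members hold for TMM scaling.

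**Figure D1:**
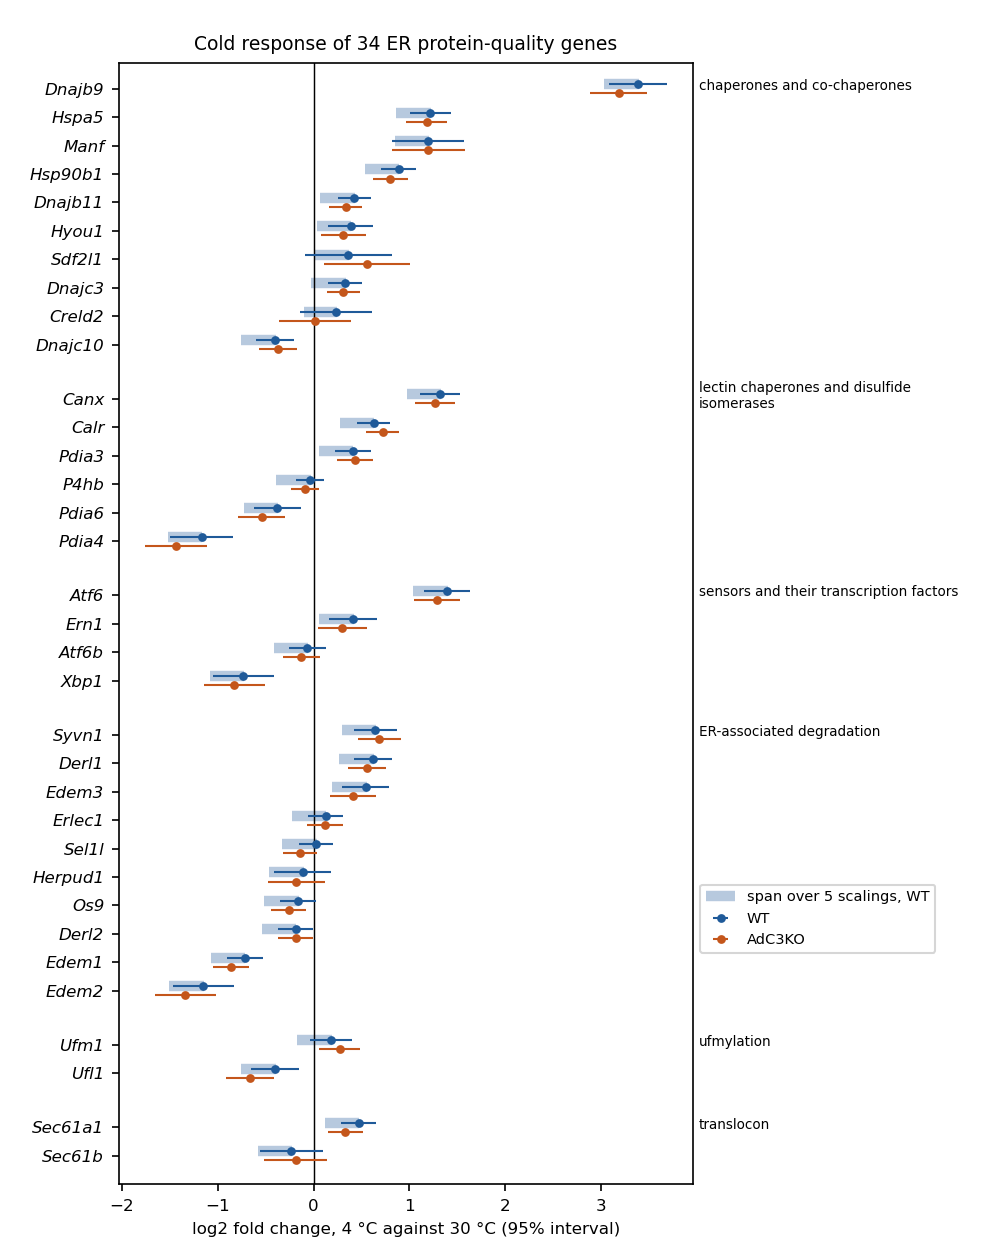
Log2 fold change of the 34 genes at 4 °C against 30 °C in WT (blue) and AdC3KO (orange), grouped by role, with 95% intervals as lines. Pale bars are the span in WT over the 5 scaling settings (TMM, RLE, upper-quartile and total-count factors, and DESeq2). Points are with TMM scaling. Dnajb9 lies farthest to the right (3.38 in WT), Pdia4 and Edem2 farthest to the left (−1.17 and −1.15), and the pale bars of members near 0, such as Dnajc3, Creld2, Sel1l, Erlec1 and Ufm1, cross it.

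Among the chaperones and co-chaperones, 7 of 10 (70%) rose and 1 (10%) fell in WT, beside 30.6% and 30.8% of all tested genes. Dnajb9 (ERdj4, the BiP co-chaperone that also binds the IRE1 sensor, ENSMUSG00000014905, chromosome 12 from 44205559 to 44210326, minus strand in GRCm38) changed most. It had 22.9, 25.7 and 26.4 CPM in WT at 30 °C and 301, 291, 254 and 197 CPM at 4 °C. The group means differed 10.4-fold with no overlap, and the fitted log2 change was 3.38 ± 0.14 (SE, adjusted p = 5.24e-11). In AdC3KO the libraries had 25.7, 29.2 and 24.8 CPM at 30 °C and 239, 259, 218 and 250.5 CPM at 4 °C, a change of 3.18 ± 0.14 (SE, adjusted p = 6.97e-11).

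Hspa5, the central Hsp70 of the ER (ENSMUSG00000026864, chromosome 2 from 34771970 to 34777547, plus strand), had 259, 282 and 279 CPM in WT at 30 °C and 693, 656, 606 and 584 CPM at 4 °C. In AdC3KO it had 282, 279 and 304 CPM and 646, 683, 558 and 723 CPM. Group means differed 2.32-fold and 2.26-fold with no overlap, and the log2 changes were 1.22 ± 0.10 (SE, adjusted p = 3.88e-08) in WT and 1.18 ± 0.10 (SE, adjusted p = 5.03e-08) in AdC3KO. Hsp90b1 (GRP94, the Hsp90 of the ER) had 132, 127 and 144 CPM in WT at 30 °C and 259, 263, 226 and 245 CPM at 4 °C. It rose by 0.89 ± 0.087 (SE, adjusted p = 2.26e-07) on the log2 scale, and the groups did not overlap. Manf, a small secreted ER protein that binds BiP, rose 2.29-fold by group means in WT, from 14.1 to 16.4 CPM to 29.5 to 38.5 CPM, with a log2 change of 1.19 ± 0.18 (SE, adjusted p = 2.54e-05). Its exons overlap those of Dcaf1 and Rbm15b, and the labels give no strand setting for the counting. Exons of Dnajb9, Hsp90b1, Pdia3, Pdia4 and Derl2 overlap other annotated genes too, as do those of further members named below.

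The remaining co-chaperones moved less. Dnajb11 (ERdj3) had a log2 change of 0.42 in WT, Hyou1 (GRP170, which exchanges the nucleotide of BiP) 0.39 and Dnajc3 (p58IPK, a BiP co-chaperone that also restrains PERK) 0.33, each called higher. None of these 3 calls held with upper-quartile factors or total counts, and under total counts Dnajc3 lay at −0.023 in WT. Sdf2l1, a partner of ERdj3, and Creld2, a secreted ER protein with isomerase-like motifs, were not called in WT, at 0.36 and 0.24. Dnajc10 (ERdj5, the J-domain reductase that opens disulfides for degradation) was the member of the group that fell. It had 25.1, 26.1 and 28.1 CPM in WT at 30 °C and 22.4, 19.7, 18.2 and 19.98 CPM at 4 °C, with no overlap and a log2 change of −0.40 ± 0.094 (SE, adjusted p = 0.00159). Without the 5 libraries with muscle transcripts its change in WT was −0.35 with adjusted p = 0.0529, the highest over its alternatives, which went down to 3.95e-06.

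**Figure D2:**
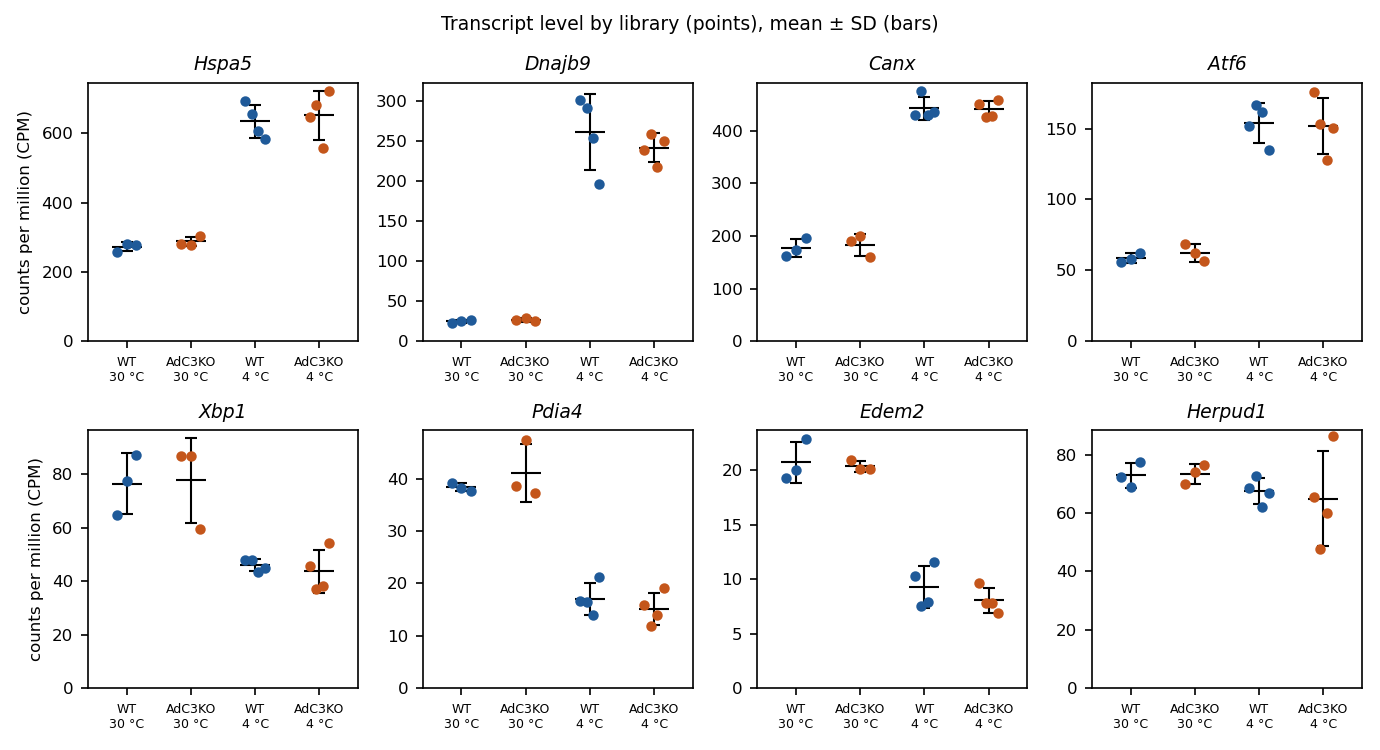
CPM of 8 genes in each of the 14 libraries (points), with the group mean and SD as bars. Hspa5, Dnajb9, Canx and Atf6 are higher and Xbp1, Pdia4 and Edem2 lower in every cold library than in every warm library of the same genotype under TMM scaling, while the Herpud1 groups overlap.

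The lectin chaperones and the disulfide isomerases parted. Canx (calnexin, the membrane-bound lectin that holds glycoproteins) had 162, 174 and 196 CPM in WT at 30 °C and 430.4, 475, 430.0 and 436 CPM at 4 °C. Over both genotypes the lowest cold library had 426 CPM and the highest warm one 199.8 CPM, and the log2 changes were 1.32 ± 0.10 (SE, adjusted p = 1.04e-08) in WT and 1.27 in AdC3KO. Calr (calreticulin, its soluble relative) had 211, 217 and 226 CPM in WT at 30 °C and 327, 339, 318 and 364 CPM at 4 °C. It rose by 0.63 ± 0.082 (SE, adjusted p = 5.75e-06), and Pdia3 (ERp57, the isomerase that works with both lectins) by 0.41 ± 0.089 (SE, adjusted p = 0.000834). The call for Pdia3 was lost with upper-quartile factors and with total counts.

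Pdia4 (ERp72) had 39.2, 38.2 and 37.7 CPM in WT at 30 °C and 16.6, 16.4, 13.96 and 21.3 CPM at 4 °C. In AdC3KO it had 38.6, 47.5 and 37.2 CPM and 15.8, 11.8, 14.1 and 19.1 CPM. Every cold library was at or below 21.3 CPM, and the fall was −1.17 ± 0.15 (SE, adjusted p = 6.4e-06) in WT and −1.43 ± 0.15 (SE, adjusted p = 6.29e-07) in AdC3KO. Pdia6 (P5) also fell, by −0.38 ± 0.12 (SE, adjusted p = 0.00991) in WT. Its exons overlap Atp6v1c2 on the other strand, and without the 5 muscle libraries its change was −0.32 with adjusted p = 0.108, the highest over its alternatives, which went down to 0.00017. P4hb, the founding disulfide isomerase of the family, was not called, at −0.037 ± 0.070 (SE, adjusted p = 0.67), with 86.6, 93.4 and 90.9 CPM at 30 °C and 89.9, 85.7, 87.5 and 89.1 CPM at 4 °C in WT. With total counts alone it was called lower, at −0.39.

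The sensors and their transcription factors moved in opposite directions. Atf6, the membrane-anchored factor that is released by proteolysis in the Golgi (ENSMUSG00000026663, chromosome 1 from 170704674 to 170867771, minus strand), had 55.6, 57.6 and 62.4 CPM in WT at 30 °C and 152, 166, 162 and 135 CPM at 4 °C. In AdC3KO it had 68.7, 61.8 and 56.3 CPM and 176, 153, 128 and 150.3 CPM. The lowest cold library had 128 CPM and the highest warm one 68.7 CPM, with log2 changes of 1.39 ± 0.11 (SE, adjusted p = 2.68e-08) and 1.29 ± 0.11 (SE, adjusted p = 5.62e-08). Its paralog Atf6b had 19.8, 23.3 and 22.3 CPM in WT at 30 °C and 19.6, 21.5, 20.2 and 22.2 CPM at 4 °C. These groups overlapped and the gene was not called, at −0.065 ± 0.092 (SE, adjusted p = 0.562), although total counts alone put it at −0.41 and called it lower. Ern1 (IRE1, the kinase and endonuclease) had 16.6, 14.8 and 18.6 CPM in WT at 30 °C and 20.9, 25.8, 20.5 and 21.9 CPM at 4 °C. The groups did not overlap, but the rise of 0.41 ± 0.12 (SE, adjusted p = 0.00685) was not called with upper-quartile factors, total counts or either other filter on low counts, and its adjusted p ran from 0.00321 to 0.73 over the alternatives.

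Xbp1, whose messenger RNA is the substrate of Ern1 protein, fell. It had 64.9, 77.5 and 87.4 CPM in WT at 30 °C and 47.9, 47.8, 43.4 and 45.1 CPM at 4 °C (log2 change −0.73 ± 0.15 (SE, adjusted p = 0.000503)) and 87.1, 86.8 and 59.5 CPM in AdC3KO at 30 °C and 45.7, 37.03, 38.2 and 54.4 CPM at 4 °C (−0.83 ± 0.15 (SE, adjusted p = 0.000163)). The 3 highest warm libraries, at 86.8 to 87.4 CPM, were the 3 with muscle transcripts, and the other 3 lay at 59.5 to 77.5 CPM. Without the 5 muscle libraries the change was −0.65 (adjusted p = 0.00402) in WT, and −0.39 (adjusted p = 0.127) in AdC3KO, where 1 warm library was then left and was assumed to vary like the other groups. Over all alternatives the adjusted p of Xbp1 ran from 2.67e-05 to 0.00447 in WT and from 4.44e-06 to 0.127 in AdC3KO.

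IRE1 cuts Xbp1 RNA at a pair of stem loops and the ends are joined, which makes the active factor. The stretch is shown because gene counts take in both forms: they give the total of Xbp1 RNA and not the share that was spliced. It was read from the GENCODE M21 transcripts of GRCm38, with the loop bases in capitals, and lies in the coding part of exon 4 of 5:
Xbp1 splice region, chr11:5524264-5524320, plus strand, bases 800 to 856 of a transcript with 5 exons: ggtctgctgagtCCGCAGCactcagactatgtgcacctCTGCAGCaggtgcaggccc
The loops start 26 bases apart, and the pair was found in all 3 protein-coding transcripts of the 4 annotated for Xbp1. The remaining transcript, with a retained intron, was not searched. The fall in the total and the rise of Dnajb9, a known target of the spliced factor, stood side by side in the same libraries: the log2 ratio of Dnajb9 to Xbp1 was −1.51, −1.59 and −1.73 in WT at 30 °C and 2.65, 2.61, 2.55 and 2.12 at 4 °C. The spliced share was not measured here.

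In ERAD, 3 of 10 genes rose and 2 fell in WT, and the 30% that rose was near the 30.6% of all tested genes. The 3 EDEM mannosidase-like proteins, which mark glycoproteins for disposal, went different ways. Edem2 had 19.3, 19.995 and 22.8 CPM in WT at 30 °C and 10.3, 7.55, 7.88 and 11.5 CPM at 4 °C, a fall of −1.15 ± 0.15 (SE, adjusted p = 5.43e-06). In AdC3KO it had 20.9, 20.1 and 20.04 CPM and 9.66, 7.84, 7.82 and 6.91 CPM. Edem1 fell as well, −0.72 ± 0.088 (SE, adjusted p = 3.12e-06) in WT, from 72.3 to 79.2 CPM to 42.7 to 50.9 CPM. Edem3 was called higher, 0.55 ± 0.12 (SE, adjusted p = 0.000663) in WT and 0.41 ± 0.11 (SE, adjusted p = 0.00529) in AdC3KO, but was not called with total counts in either genotype (0.20 and 0.027). In AdC3KO its temperature groups overlapped, and the call was also lost with upper-quartile factors (0.18, adjusted p = 0.18) and with a mean of at least 5 CPM (0.26, adjusted p = 0.059).

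The ubiquitin ligase and its scaffold did not move together. Syvn1 (HRD1, the ligase) had 25.4, 26.2 and 26.7 CPM in WT at 30 °C and 36.8, 44.2, 44.9 and 37.3 CPM at 4 °C, without overlap, and 23.9, 25.8 and 25.2 CPM in AdC3KO at 30 °C and 38.3, 39.4, 35.9 and 47.2 CPM at 4 °C. The log2 changes were 0.64 ± 0.11 (SE, adjusted p = 6.11e-05) and 0.69 ± 0.11 (SE, adjusted p = 2.99e-05). With total counts the value in WT was 0.29 (adjusted p = 0.0551, the highest over its alternatives, the lowest being 5.35e-07), and its exons overlap Mrpl49. Sel1l, the scaffold, had 81.6, 79.7 and 82.1 CPM in WT at 30 °C and 88.7, 84.2, 83.04 and 74.8 CPM at 4 °C, with overlapping groups and 0.026 ± 0.084 (SE, adjusted p = 0.804). It had 89.8, 78.95 and 78.1 CPM in AdC3KO at 30 °C and 72.2, 73.5, 70.4 and 83.1 CPM at 4 °C, −0.14 ± 0.084 (SE, adjusted p = 0.165). With total counts Sel1l was called lower in both genotypes, at −0.33 and −0.53.

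Derl1, a channel protein of the retrotranslocation site, had a log2 change of 0.62 ± 0.095 (SE, adjusted p = 2.92e-05) in WT and 0.56 ± 0.094 (SE, adjusted p = 8.15e-05) in AdC3KO, with a call in AdC3KO that was lost with total counts (0.17), whereas its paralog Derl2 was at −0.19 ± 0.086 (SE, adjusted p = 0.0699) and not called. The temperature groups of Derl2 did not overlap in either genotype. Derl2 was called lower in both with upper-quartile factors (−0.43 and −0.42) and with total counts (−0.54 and −0.57). Herpud1, a short-lived membrane protein that binds HRD1 and a common marker of ER stress, was not called with TMM scaling. It had 72.3, 69.01 and 77.5 CPM in WT at 30 °C and 68.7, 72.6, 62.1 and 67.03 CPM at 4 °C and 69.8, 74.1 and 76.6 CPM in AdC3KO at 30 °C and 65.5, 47.5, 60.02 and 86.4 CPM at 4 °C. The groups overlapped, the log2 changes were −0.11 ± 0.14 (SE, adjusted p = 0.513) and −0.18 ± 0.14 (SE, adjusted p = 0.274), and the cold AdC3KO libraries were spread most widely. Herpud1 was called lower in both genotypes with upper-quartile factors (−0.35 and −0.41) and with total counts (−0.46 and −0.56). The glycan-reading lectins Os9 and Erlec1 were at −0.16 and 0.13 in WT. Os9 was called lower in AdC3KO, at −0.26 ± 0.087 (SE, adjusted p = 0.0165), and Erlec1 in neither genotype. In WT, Os9 was called lower with upper-quartile factors (−0.40) and total counts (−0.52). With total counts Erlec1 was called lower in both genotypes, at −0.23 and −0.27.

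For ufmylation, in which the small modifier UFM1 is attached to ribosomes at the ER membrane, the ligase fell. Ufl1 (the UFM1 ligase) had 26.05, 25.98 and 23.6 CPM in WT at 30 °C and 20.5, 19.1, 20.1 and 16.5 CPM at 4 °C and 24.9, 23.7 and 27.4 CPM in AdC3KO at 30 °C and 15.6, 18.9, 16.2 and 13.2 CPM at 4 °C. The groups did not overlap, with −0.40 ± 0.12 (SE, adjusted p = 0.00757) in WT and −0.66 ± 0.12 (SE, adjusted p = 0.000136) in AdC3KO, and its exons overlap the unnamed gene Gm11906 on the other strand. Ufm1, the modifier itself, had 34.6, 45.3 and 36.98 CPM in WT at 30 °C and 51.7, 41.3, 41.3 and 42.97 CPM at 4 °C and was not called in WT, at 0.18 ± 0.10 (SE, adjusted p = 0.131). In AdC3KO it was at 0.27 ± 0.10 (SE, adjusted p = 0.0299), a call lost under 8 alternatives that kept the sign. With total counts the call was lost as well and the sign turned (−0.12).

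Of the translocon, Sec61a1, the pore-forming subunit, had 42.99, 40.5 and 44.6 CPM in WT at 30 °C and 60.4, 59.01, 59.9 and 57.6 CPM at 4 °C. The groups did not overlap and the change was 0.47 ± 0.087 (SE, adjusted p = 0.000187) in WT and 0.33 ± 0.086 (SE, adjusted p = 0.00323) in AdC3KO. With total counts it was 0.12 in WT and −0.059 in AdC3KO, where the call was also lost with upper-quartile factors and with either other filter on low counts. Its exons overlap Gm44170. Sec61b, the small tail-anchored subunit, had 21.04, 30.5 and 21.2 CPM in WT at 30 °C and 23.2, 18.9, 17.1 and 23.4 CPM at 4 °C and was not called, at −0.23 ± 0.16 (SE, adjusted p = 0.211). WT library 2 at 30 °C was the highest for this gene. Sec61b was called lower in both genotypes with upper-quartile factors (−0.48 and −0.42) and with total counts (−0.58 and −0.57).

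Changes of at least 2-fold were fewer. Called and at least 2-fold higher in WT were 5 of the 34, or 14.7%, where 14% of all tested genes were, and these were Dnajb9, Atf6, Canx, Hspa5 and Manf. Called and at least 2-fold lower were 2, Pdia4 and Edem2, or 5.88% against 18.3%. The same 5 and the same 2 passed in AdC3KO, beside 14.1% and 19.9% of all tested genes.

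The cold responses of WT and AdC3KO share no library. Of the 34 genes, 33 had the same sign in both (all tested genes 90.8%), and the exception was Sel1l. All 16 genes called higher in WT were called higher in AdC3KO and all 7 called lower were called lower. Sdf2l1, Ufm1 and Os9 were called in AdC3KO and not in WT, and none of them had an interaction past the threshold. Some calls of AdC3KO near the threshold were lost when a library was left out, with the log2 changes then in brackets: that of Sdf2l1 was lost without AdC3KO library 1, 2 or 3 at 30 °C or 2 or 4 at 4 °C (0.48 to 0.58), that of Ufm1 without 1 or 2 at 30 °C or 4 at 4 °C (0.25 to 0.27), that of Hyou1 without 2 or 3 at 30 °C or 4 at 4 °C (0.20 to 0.31), that of Ern1 without 2 or 3 at 30 °C or 1 at 4 °C (0.21 to 0.30), and that of Os9 without 4 at 4 °C (−0.19). Conversely, Herpud1 was called lower in AdC3KO without library 4 at 4 °C (−0.33, adjusted p = 0.0155), and in WT Ufm1 was called higher without WT library 2 at 30 °C (0.31) and Derl2 lower without AdC3KO library 2 at 4 °C (−0.20). Without the 5 muscle libraries, 15 were higher and 5 lower in WT and 14 and 4 in AdC3KO. Without the 2 libraries high in interferon genes, the counts were 16 and 7 in WT and 17 and 8 in AdC3KO.

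Ratios of a pair of members within 1 library do not depend on how libraries are scaled, and 12 pairs were formed after the values had been seen. Atf6 over Atf6b had log2 ratios of 1.49, 1.30 and 1.49 in WT at 30 °C and 2.96, 2.95, 3.00 and 2.61 at 4 °C. The ratio of the paralogs was higher in every cold library. Edem3 over Edem2 went from 1.04, 1.15 and 0.83 to 2.45, 3.08, 2.98 and 2.38, so Edem3 and Edem2 changed unequally. Canx over Calr went from −0.38, −0.32 and −0.20 to 0.40, 0.49, 0.43 and 0.26, so the membrane-bound lectin gained on the soluble one. P4hb over Pdia4 was higher in cold by 1.15 in WT and by 1.36 in AdC3KO, Derl1 over Derl2 by 0.81 and 0.75, and Syvn1 over Sel1l by 0.61 and 0.82. For 11 of the 12 pairs the temperature groups did not overlap in either genotype, and for Sec61a1 over Sec61b they overlapped in AdC3KO. With 3 warm and 4 cold libraries the smallest p that an exact two-sided permutation test can give is 0.0286, and since the pairs were picked for their difference it is given as a limit and not as a test.

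**Figure D3:**
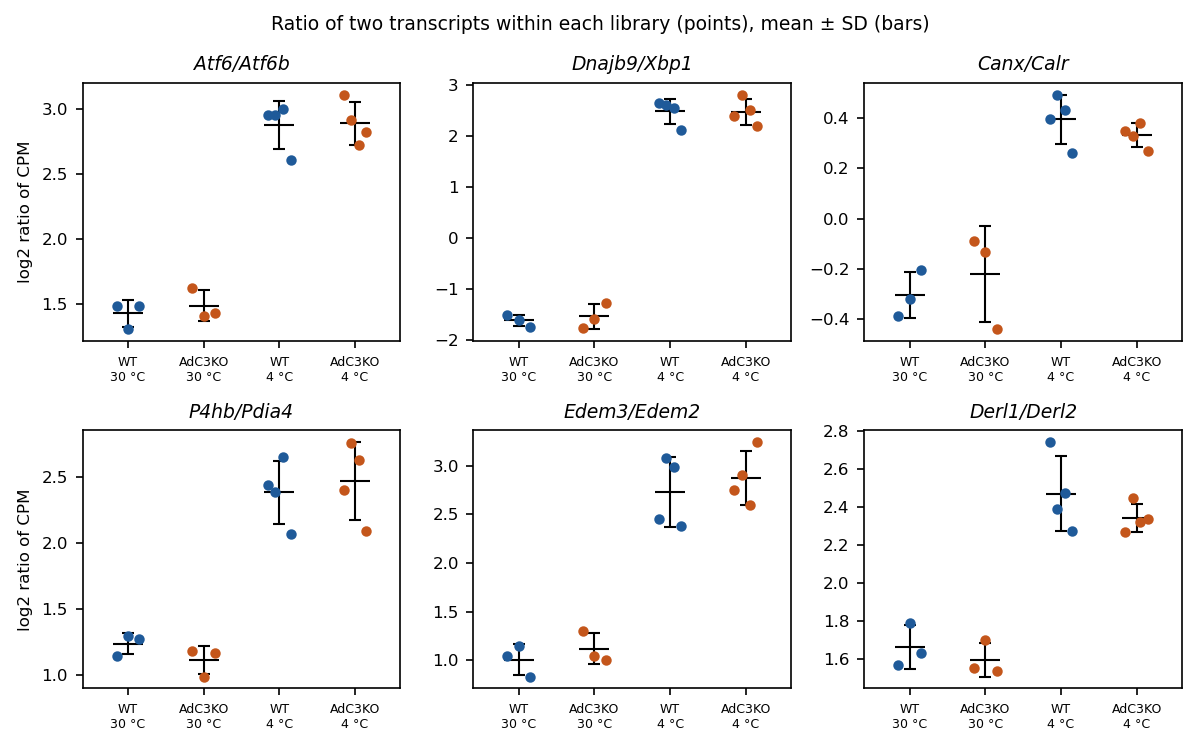
Log2 ratio of the CPM of 6 gene pairs in each library (points), with group mean and SD as bars. In every panel the libraries at 4 °C lie above those at 30 °C in both genotypes, and AdC3KO and WT overlap at each temperature.

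Levels of different genes were compared per kilobase of exon, counting every annotated exon of all transcripts of a gene. The order therefore depends on the annotation, as for Manf, whose exons overlap those of other genes. In WT at 30 °C the highest were Calr at 75.7 ± 2.54 CPM per kilobase (SD, n = 3), Hspa5 at 64.6 ± 2.98 and Pdia3 at 46.6 ± 1.22. Ern1, the sensor, was the lowest of the 34 at 2.04 ± 0.233 CPM per kilobase. In WT at 4 °C Hspa5 led at 150.1 ± 11.6 (SD, n = 4), followed by Calr at 117 ± 6.90, Dnajb9 at 102 ± 18.6 and Canx at 94.4 ± 4.65, and the SD of Dnajb9 overlapped those of its neighbours Calr and Canx. Dnajb9 went from rank 18 to rank 3, Atf6 from 26 to 13 and Manf from 32 to 19. Pdia4 went from rank 13 to 28, Edem1 from 16 to 27, and Edem2 from 27 to the last place, 34. The order in AdC3KO had the same first 4 genes at 4 °C and the same first 6 at 30 °C.

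Genes of the unfolded protein response carry known DNA elements near their start, and the windows of the members were searched for them because several members had moved together. Windows of 300 bases, from 250 before to 50 after the annotated start, came from RefSeq on GRCm38.p6 and were found for 28 of the 34 (not for Hyou1, Manf, Atf6, Derl1, Erlec1 and Sec61a1). Both strands were searched for the ER stress response element ERSE, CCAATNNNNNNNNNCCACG, and for ERSE-II, ATTGGNCCACG. Both are read by ATF6 and XBP1 and both contain the half-site CCACG. The matches are shown with 5 flanking bases, in the orientation of the element, with its fixed letters in capitals:
Calr, chr8:84847070-84847098, plus strand: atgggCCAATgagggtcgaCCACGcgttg
Canx, chr11:50325795-50325823, minus strand: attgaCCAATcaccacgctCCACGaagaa
Creld2, chr15:88819515-88819543, minus strand: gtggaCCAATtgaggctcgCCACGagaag
Dnajc3, chr14:118937822-118937850, plus strand: cacaaCCAATcagcgccaaCCACGacccg
Hsp90b1, chr10:86705633-86705661, minus strand: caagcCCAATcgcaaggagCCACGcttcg
Hsp90b1, chr10:86705528-86705556, plus strand: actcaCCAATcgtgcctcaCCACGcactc
Hspa5, chr2:34772020-34772048, plus strand: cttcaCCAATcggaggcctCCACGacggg
Pdia6, chr12:17266486-17266514, plus strand: agagaCCAATgaaaggcggCCACGgcgtg
Syvn1, chr19:6046527-6046555, plus strand: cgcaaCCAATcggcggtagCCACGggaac
Dnajb11, chr16:22857847-22857867, plus strand: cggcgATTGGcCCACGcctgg
Herpud1, chr8:94386372-94386392, plus strand: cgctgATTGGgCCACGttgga
The first 9 are ERSE and the last 2, of Dnajb11 and Herpud1, are ERSE-II. Hsp90b1 carried a pair of elements in opposite orientations.

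ERSE was found in 8 of 28 members, or 28.6%, and in 37 of 27025 genes with a window, or 0.137%. ERSE-II was found in 2 members, or 7.14%, and in 12 genes, or 0.0444%. The half-site CCACG alone was in 23 members, or 82.1%, and in 35.5% of genes. The elements are known from genes of the unfolded protein response. The members were chosen from that pathway, so a higher share than in all genes was built into the choice. The 27025 genes also took in genes with too few reads to be tested, whereas every member was tested. Neither TGACGTGG, the core of the unfolded protein response element, nor the cyclic AMP response element TGACGTCA was in any member window; 0.714% and 2.03% of genes had them, and no match says only that these letters are not in this window. Of the 10 members with ERSE or ERSE-II, 7 were higher and 1 lower in cold in WT, with a median log2 change of 0.53. Of the 18 with a window and neither element, 4 were higher and 6 lower, with a median of −0.11. In AdC3KO the counts were 7 and 1 (median 0.51) and 6 and 7 (median −0.16). Of all tested genes, 30.6% were higher and 30.8% lower in WT, and 31% and 32.1% in AdC3KO. Members without a window are in neither list. Of these, Hyou1 (0.39), Manf (1.19), Atf6 (1.39), Derl1 (0.62) and Sec61a1 (0.47) were called higher in WT, and Erlec1 (0.13) was not. The contrast of the lists therefore rests partly on which members had a window. The counts by element are descriptions of lists that the search itself defined, with no test. Of the 7 that rose with an element, Calr, Canx, Hsp90b1 and Hspa5 were called higher in all 5 scaling settings.

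Members with an element did not all rise. Pdia6 carried ERSE and fell, and Creld2 and Herpud1 carried an element and were not called under TMM scaling. Dnajb9, the gene with the largest rise, had no match to either element in its window. The window of Dnajb9 held 2 half-sites, which are shown on the strand of the gene, with 12 flanking bases and the half-site in capitals:
Dnajb9, chr12:44210160-44210188, minus strand: aacaacagttttCCACGtgcgcgtagggc
Dnajb9, chr12:44210067-44210095, minus strand: cggtcgcgccagCCACGggctcccgccag
Windows start from the RefSeq gene start, which for Hspa5 and Dnajb9 lies inside the longest GENCODE transcript, so a factor bound elsewhere would not be seen in them.

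**Figure D4:**
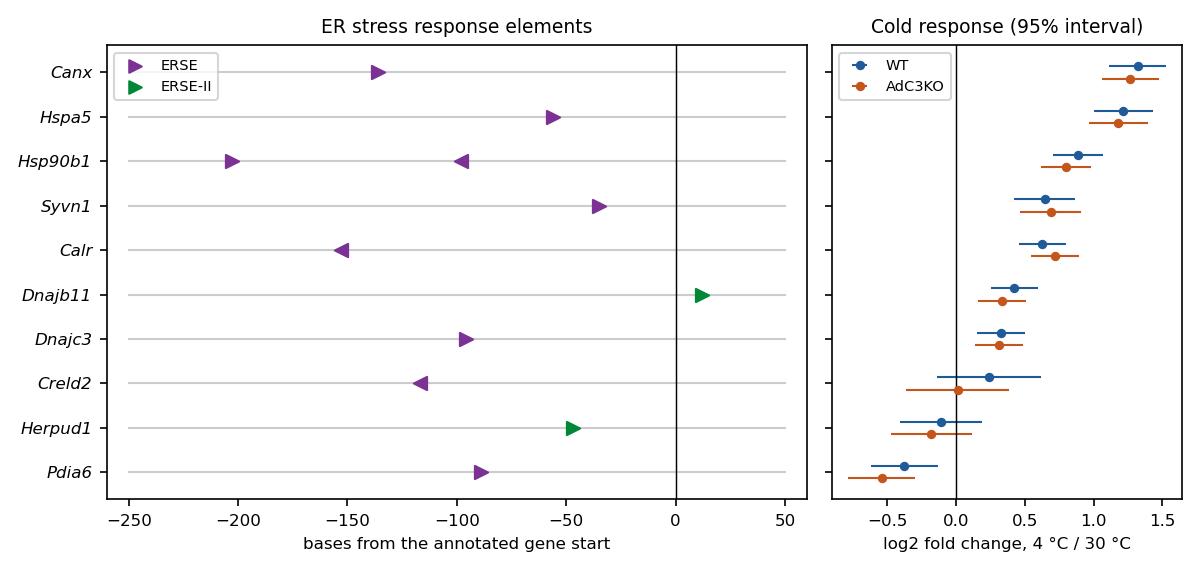
Left, position of ERSE (purple) and ERSE-II (green) in bases from the annotated gene start in the 10 members that have a match, with the arrow giving the orientation. Right, log2 fold change of the same genes at 4 °C against 30 °C with 95% intervals under TMM scaling; 7 of the 10 are called higher and Pdia6 lower in WT, and with total counts alone Dnajc3 and Creld2 fall below 0 in both genotypes and Dnajb11 in AdC3KO.

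A further 146 genes of the same pathways, listed by name with earlier results known, gave 141 that were tested. In WT 64 of them (45.4%) were higher and 28 (19.9%) lower, and in AdC3KO 67 and 30. With total counts alone the split was 35 and 60 in WT and 34 and 63 in AdC3KO, so the balance of directions depended on scaling. Of 36 ERAD genes outside the 34, 23 (63.9%) were higher and 3 (8.33%) lower in WT (median 0.52), beside 30.6% and 30.8% of all tested genes. With upper-quartile factors they were 20 and 10, and with total counts 15 and 10 (median 0.16), where 19.4% of all tested genes were higher and 44.03% lower. The largest rises were of the unfoldase cofactor Nploc4 (1.72), the UBX protein Ubxn4 (1.58) and the ubiquitin ligase Rnf185 (1.53). Tmem129 (−0.94), Erlin2 (−0.87) and the mannosidase Man1b1 (−0.41) were the 3 that fell.

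Of 39 other folding enzymes 12 were higher and 12 lower in WT, 30.8% each, near the 30.6% and 30.8% of all tested genes. With total counts they were 6 and 22, where 19.4% of all tested genes were higher and 44.03% lower. Tmx4, a membrane thioredoxin, was at 2.06, Qsox1, a sulfhydryl oxidase, at 1.53 and Ero1l, which reoxidises disulfide isomerases, at 1.05. Pdia5 (−2.55), Txndc5 (−1.08) and the glucosyltransferase relative Uggt2 (−1.04) fell, the first 2 being disulfide isomerases like Pdia4 and Pdia6. Of 40 translocon and ER entry genes 20 (50%) rose and 6 (15%) fell with TMM, but 8 rose and 16 fell with total counts. Signal recognition particle subunits Srp54a (1.40) and Srp72 (1.16) and the oligosaccharyltransferase subunit Stt3b (0.98) were highest, and Tram1 (−0.76), Tram2 (−0.64) and the membrane insertase subunit Emc1 (−0.48) were lowest.

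Of 19 tested sensor and signalling genes 8 (42.1%) rose and 5 (26.3%) fell in WT, beside 30.6% and 30.8% of all tested genes. With total counts 5 rose and 7 fell, beside 19.4% and 44.03% of all tested genes. Atf4, the factor translated when PERK or related kinases act, had a log2 change of 3.52 ± 0.12 (SE, adjusted p = 9.93e-12), Ppp1r15a (GADD34) 3.37 ± 0.17 (SE, adjusted p = 3.65e-10) and Trib3 2.25 ± 0.30 (SE, adjusted p = 2.34e-05). The ER-anchored factors Creb3l1 (−1.44) and Creb3l2 (−1.08) and the kinase Map3k5 (−0.83) fell. Named after their values were seen, Ddit3 (CHOP, a late marker of ER stress) was not called, at −0.17 ± 0.26 (SE, adjusted p = 0.598), and neither was Eif2ak3 (PERK), at 0.14 ± 0.12 (SE, adjusted p = 0.314). The protease genes that release ATF6 moved apart, Mbtps1 at −0.26 ± 0.092 (SE, adjusted p = 0.0209) and Mbtps2 at 0.51 ± 0.12 (SE, adjusted p = 0.00187).

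The summed levels of some marker lists of other cells also differed between the temperatures. The summed level of 12 plasma and B cell markers, plasma cells being rich in ER, was 14.5 to 18.3 CPM in WT at 30 °C and 5.19 to 15.8 CPM at 4 °C, and 14.9 to 22.4 and 3.03 to 7.83 CPM in AdC3KO. Of the 9 tested, 3 were lower in WT and 6 in AdC3KO and none higher. Of all tested genes, 30.6% were higher and 30.8% lower in WT, and 31% and 32.1% in AdC3KO. The 3 of 9 in WT were thus near the share of all tested genes, and calls in the lists below stand beside the same shares. The plasma cell markers Mzb1 and Tnfrsf17 had 3 and 10 reads over all 14 libraries. The sum of 10 macrophage markers was 180.3 to 207 CPM and 310.1 to 637 CPM in WT and 177 to 262 and 256 to 430.1 CPM in AdC3KO, with 6 of 10 called higher in WT and 4 in AdC3KO. Among 10 endothelial markers 5 were higher and 4 lower in WT, and their sum went from 820.0 to 1095 to 1472 to 1672 CPM. Of 5 red blood cell transcripts tested, 4 were higher in WT and all 5 in AdC3KO, and their sum over 6 transcripts was 276 to 358 CPM at 30 °C and 327 to 599 CPM at 4 °C in WT and 245 to 385 and 497 to 623 CPM in AdC3KO. The part of these cells in the values of the 34 genes was not tested.

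No member passed the test between the genotypes. At 30 °C, 0 were called between AdC3KO and WT, beside 0.0439% of all tested genes, and 0 had an unadjusted p below 0.05 (all genes 1.33%) in edgeR. DESeq2 also called 0. The libraries of the genotypes overlapped for all 34, where 7.29% of all tested genes did not overlap. The log2 differences ran from −0.13 to 0.10, and 12 of 34 (35.3%) were below 0, where 46.8% of all tested genes were. The 3 with the smallest p were Derl1 at −0.10 ± 0.10 (SE, adjusted p = 1), Edem3 at 0.10 ± 0.12 (SE, adjusted p = 1) and Atf6 at 0.090 ± 0.12 (SE, adjusted p = 1). The Derl1 groups overlapped, with 117, 135 and 114 CPM in WT and 106, 117 and 118 CPM in AdC3KO. Edem3 and Atf6 turned to −0.059 and −0.0077 without the muscle libraries.

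At 4 °C, again 0 were called in edgeR or DESeq2, beside 0.0502% of all tested genes, and 1 had an unadjusted p below 0.05 (all genes 4.8%). The log2 differences ran from −0.25 to 0.09. Of the 34, 27 (79.4%) were below 0, where 51.4% of all tested genes were. Of the 141 other genes of the same pathways, 50.4% were below 0. The signs of the 34 come from the same libraries and are not independent, and their balance was not tested. Ufl1 had the smallest p, with 20.5, 19.1, 20.1 and 16.5 CPM in WT and 15.6, 18.9, 16.2 and 13.2 CPM in AdC3KO. Of the AdC3KO libraries 3 were below every WT library and 1 was not, with a difference of −0.25 ± 0.11 (SE, adjusted p = 0.963), unadjusted p = 0.0376. Derl1 was at −0.16 ± 0.086 (SE, adjusted p = 0.963) and Sel1l at −0.14 ± 0.078 (SE, adjusted p = 0.963). The groups of Sec61a1 did not overlap, with 60.4, 59.01, 59.9 and 57.6 CPM in WT and 53.7, 55.5, 51.5 and 57.3 CPM in AdC3KO, where 2.27% of all tested genes had groups that did not overlap, and its difference of −0.12 ± 0.079 (SE, adjusted p = 0.963) was not called.

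The 95% intervals give the precision of the genotype comparison at 4 °C. For Hspa5 the interval was −0.15 to 0.23 on the log2 scale, for Dnajb9 −0.35 to 0.13, for Atf6 −0.23 to 0.19, and for Xbp1 −0.37 to 0.23. Sdf2l1, the least abundant member by reads, had the widest, −0.35 to 0.48.

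The interaction, which is the cold response in AdC3KO minus that in WT, was called for 0 of the 34 in edgeR and in DESeq2, beside 0% of all tested genes in edgeR. By unadjusted p, 0 of the 34 and 2.19% of all tested genes were below 0.05. The values ran from −0.27 to 0.19 on the log2 scale. The smallest p belonged to Ufl1 at −0.26 ± 0.17 (SE, adjusted p = 1), Sel1l at −0.16 ± 0.12 (SE, adjusted p = 1) and Pdia4 at −0.27 ± 0.22 (SE, adjusted p = 1). None of the 141 other pathway genes was called between the genotypes at either temperature in edgeR or DESeq2.

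**Figure D5:**
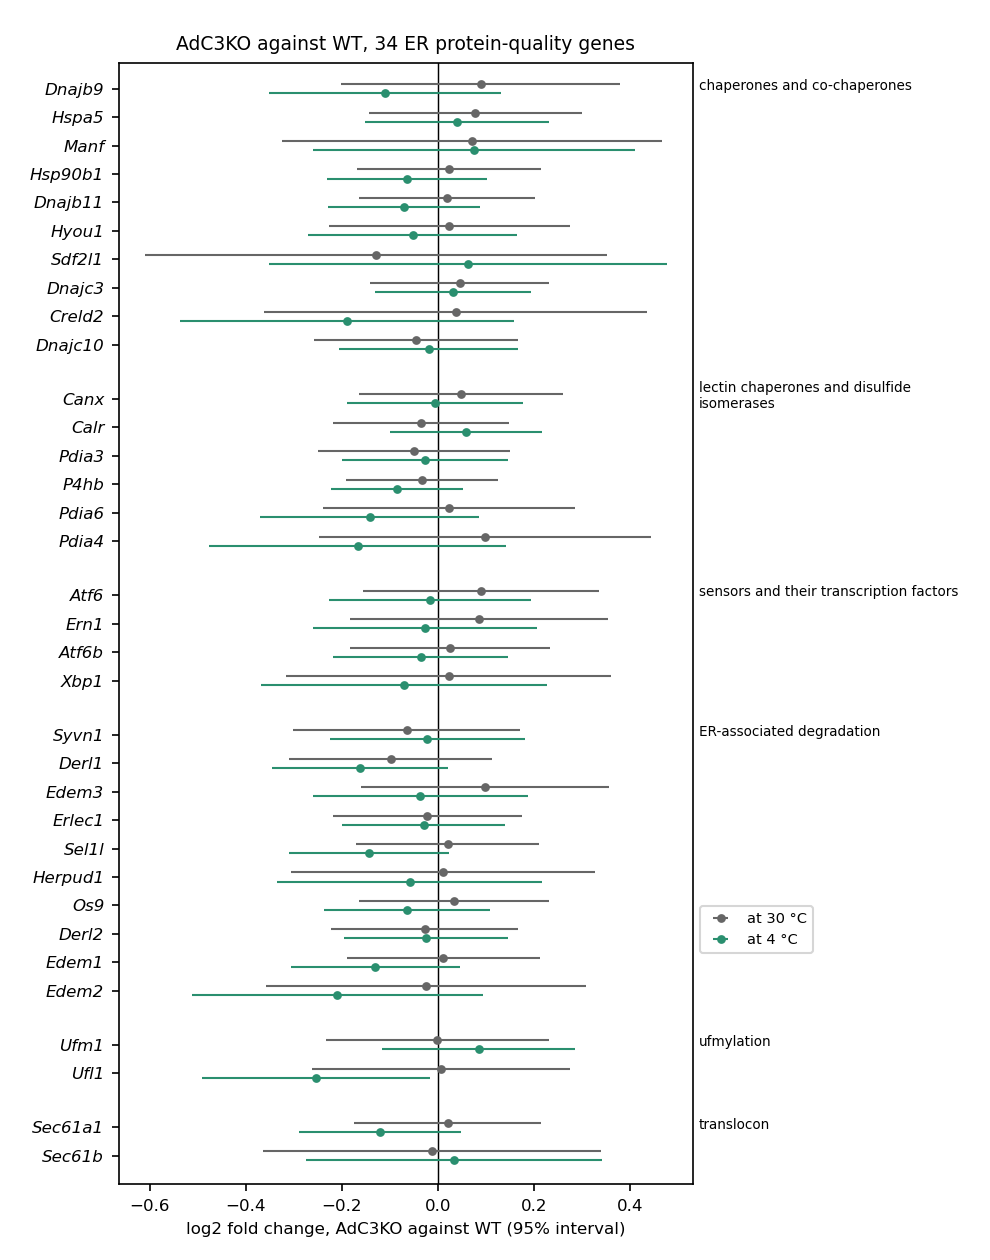
Log2 difference between AdC3KO and WT for the 34 genes at 30 °C (grey) and at 4 °C (green), with 95% intervals as lines and genes grouped by role. All intervals at 30 °C include 0, and at 4 °C those of 33 of the 34 do, with Ufl1 (−0.49 to −0.016) the exception before adjustment over all genes.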

How the data were processed

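RNA of 14 BAT libraries in 4 groups was analysed. The authors trimmed reads with Trimmomatic, aligned them to GRCm38/mm10 with STAR and made gene counts with HTSeq, per the series' design text and the submitters' processing notes. The labels give neither tool versions nor a strand setting. What they deposited are whole-number counts per Ensembl gene, not normalised, in 1 table of 55471 genes. Summary lines that name no gene were left out of library sizes; reads outside genes were 5.95% to 8.19% of a library and ambiguous reads 5.53% to 6.03%. Symbols came from GENCODE M21 by exact identifier.

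Counts were fitted with edgeR 4.0.16 in R 4.3.3: filterByExpr at a minimum count of 10 left 15949 genes, TMM factors were 0.822 to 1.21, and all 14 libraries entered 1 robust quasi-likelihood fit. The 5 comparisons were cold in each genotype, genotype at each temperature and their interaction. P-values are two-sided and adjusted by Benjamini-Hochberg over all tested genes at 0.05, and every adjusted p is from this test unless another tool is named. Ranges of adjusted p over the alternatives also take in DESeq2. It gave the lowest values for Ern1 and Syvn1 in WT and for Xbp1 in AdC3KO. The step was tested on simulated data. CPM carry the TMM factors, and intervals are 95%. A count interval would cover counting error only, since no molecular identifiers are named.

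The members, the other pathway lists and the marker lists were chosen with earlier results of these data known. Library values are given for the gene with the highest and the lowest cold change in WT in each role and for Hspa5, Hsp90b1, Xbp1, Ern1, Atf6, Herpud1, Sel1l and Syvn1. Library values of further members were added after the values were seen. In the genotype and interaction comparisons the 3 members with the smallest p are named. Of the other pathway genes, the 3 largest called rises and falls per list in WT with groups that did not overlap are named, except for the further ufmylation genes, which are not reported singly here. Alternatives were DESeq2 1.42.0, other scaling factors, other filters, fewer samples in the fit, a replicate block, each library left out, and libraries with muscle or high interferon transcripts left out. Scaling by total counts alone was added after seeing the data.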

Additional observations from a re-analysis of the deposited data

Results flagged for a closer look

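In the groups of 4 libraries, 68 sets of values (34 genes in 2 groups) were searched for a single library far from the other 3, and 4 were found, where chance gives about 1 in 20. In AdC3KO at 4 °C, Dnajc3 was at 99.9 CPM in library 4, against 86.8 to 88.3 CPM in the others, and Derl2 was at 29.02 CPM in library 2, against 33.97 to 34.9 CPM. In WT at 4 °C, Canx was at 475 CPM in library 2, which also had muscle transcripts, against 430.0 to 436 CPM, and Ufm1 was at 51.7 CPM in library 1, against 41.3 to 43.0 CPM. Dnajc3 and Canx stayed called higher in their genotype without each library in turn. Without AdC3KO library 2 at 4 °C, Derl2 was called lower in WT, at −0.20 (adjusted p = 0.042, edgeR).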

How the results depend on the processing

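The counts of members called higher and lower in cold were 16 and 7 in WT and 18 and 8 in AdC3KO. With DESeq2 and with RLE factors they were the same numbers. With upper-quartile factors the members called lower were 14 in WT and 14 in AdC3KO and those higher 9 in AdC3KO. With total counts alone they were 8 higher and 15 lower in both. Of all tested genes in WT, upper-quartile factors called 22.8% higher and 40.2% lower, and total counts 19.4% and 44.03%. With a mean of at least 5 CPM, 12 were lower in WT, and 11 higher and 13 lower in AdC3KO. With no filter, 11 were higher in AdC3KO. Without the muscle libraries, 4 were lower in AdC3KO. For the other pathway genes, the counts were 64 and 28 in WT and 67 and 30 in AdC3KO. Upper-quartile factors gave 52 lower in WT, and 44 and 52 in AdC3KO, total counts 35 and 60 in WT and 34 and 63 in AdC3KO, and leaving out the muscle libraries 42 higher in AdC3KO. The genotype and interaction counts of members were 0 under every alternative run. Leaving out 1 library at a time gave 16 to 17 higher and 7 to 8 lower in WT, and 14 to 18 higher and 8 lower in AdC3KO.

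Signs that turned belonged to small changes. With upper-quartile factors, Creld2 (−0.0026), Sel1l (−0.22), Erlec1 (−0.12) and Ufm1 (−0.058) in WT and Creld2 (−0.22) and Erlec1 (−0.11) in AdC3KO turned negative. With total counts, Dnajc3 (−0.023), Creld2 (−0.098), Sel1l (−0.33), Erlec1 (−0.23) and Ufm1 (−0.17) did so in WT, and Hyou1 (−0.075), Dnajb11 (−0.053), Dnajc3 (−0.077), Creld2 (−0.37), Ern1 (−0.088), Erlec1 (−0.27), Ufm1 (−0.12) and Sec61a1 (−0.059) in AdC3KO. With no filter, Sel1l was −0.069 in WT and Creld2 −0.077 in AdC3KO. With a mean of at least 5 CPM, Sel1l (−0.14) and Erlec1 (−0.036) turned in WT and Creld2 (−0.14) and Erlec1 (−0.034) in AdC3KO. Without the muscle libraries Creld2 was −0.020 in AdC3KO, and the genotype differences at 30 °C of Atf6 and Edem3 were −0.0077 and −0.059; without the interferon libraries Creld2 was −0.00090 in AdC3KO. Leaving out single libraries, Creld2 ranged from −0.056 to 0.12 in AdC3KO, Sel1l from −0.022 to 0.081 in WT and Edem3 between genotypes at 30 °C from −0.025 to 0.17. In these libraries, upper-quartile and total-count factors lowered the cold changes relative to TMM. Which scaling is right was not tested, and for the other turned signs the cause was not tested.

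The replicate numbers of the labels showed no pairing of the libraries: over 13 same-number pairs the correlation of deviations was −0.29 to 0.039. With groups of 3 or 4 libraries, such a check cannot exclude a pairing. With the number as a replicate block the counts were 16 and 7 in WT and 14 and 8 in AdC3KO, and Creld2 in AdC3KO was at −0.090. Sdf2l1, with the fewest reads, had the widest interval between genotypes at 4 °C.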
